A study of Mus musculus with 4 samples.

Results

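The replication-dependent histone genes of the mouse lie in clusters, and the Bach1, Bach2 and Mafk peaks that fall in 3 windows set around these clusters are described here. A peak was a member when its summit lay in 1 of 3 mm9 windows: chromosome 13 from 21700000 to 24000000 (Hist1 cluster), chromosome 3 from 95950000 to 96150000 (Hist2 cluster) or chromosome 11 from 58700000 to 58950000 (Hist3 cluster). The windows held 125 of the 7017 peaks of the 3 lists: 59 of 3873 Bach1 peaks, 62 of 1385 Bach2 peaks and 4 of 1759 Mafk peaks. The windows were chosen by position, selected on the crowding of peak summits that earlier results had shown on chromosome 13, so the number and spacing of peaks there are given as a description, with no test. Binding was mapped by chromatin immunoprecipitation and sequencing (ChIP-seq) in M1, a mouse myeloid leukemia cell line that was neither treated nor stimulated. Antibodies were made in-house for Bach1 (A1-6) and Bach2 (Bach2N2) and bought for Mafk, under its other name NF-E2 p18 (c-16). Each factor had 1 library from the same line, so no difference has a replicate check and no p-values are given. The reads per library are unknown from the lists, and the input DNA library, made without antibody, was used here only through the authors' fold enrichment.

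Replication-dependent histone genes encode the core histones H2A, H2B, H3 and H4 and the linker histone H1, the proteins that package newly made DNA. They are transcribed mainly while DNA is copied, lie in many near-identical copies, mostly have no introns, and give messenger RNAs that end in a stem-loop in place of a poly(A) tail. Bach1 and Bach2 are repressors that bind DNA as dimers with small Maf proteins such as Mafk, at elements built around TGANTCA (N stands for any base). In the RefSeq gene table (GRCm38.p6), used for names and neighbours only, 66 protein-coding histone genes belonged to the clusters: 54 to Hist1, 10 to Hist2 and 2 to Hist3. Those of Hist1 comprised 6 H1, 13 H2A, 15 H2B, 9 H3 and 11 H4 genes. An mm9 annotation was not used here, so no peak is assigned to a gene, and the placing of the windows at the histone genes rests on their labels.

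Promoters of these genes were searched for the letters of Bach and Maf sites because the peaks are crowded in these windows. RefSeq promoters (250 bases before to 50 after the start site) were matched for 61 of the 66 genes, 1 promoter per gene. The core TGANTCA, which reads the same on both strands, was found in 3 of the 61 (4.92%, Wilson 95% interval 1.69 to 13.5), against 7.81% of all 32851 promoters of the table. The 3 were H1f5, a linker histone gene, and the neighbours H2ac13 (an H2A gene) and H2bc13 (an H2B gene), whose promoters share 1 match between them. The promoters of H1f5 and H2bc13 are shown for the core, beside that of H2bc12, an H2B gene that holds the octamer of histone promoters and not the core. The bases before the start site are printed 5′ to 3′, with TGANTCA in capitals for the first pair and ATTTGCAT for H2bc12. In GRCm38.p6, whose coordinates cannot be set beside the mm9 peaks, H1f5 is chr13:21780626-21780875, minus strand, H2bc13 is chr13:21716184-21716433, minus strand, and H2bc12 is chr13:22035571-22035820, plus strand.
H1f5: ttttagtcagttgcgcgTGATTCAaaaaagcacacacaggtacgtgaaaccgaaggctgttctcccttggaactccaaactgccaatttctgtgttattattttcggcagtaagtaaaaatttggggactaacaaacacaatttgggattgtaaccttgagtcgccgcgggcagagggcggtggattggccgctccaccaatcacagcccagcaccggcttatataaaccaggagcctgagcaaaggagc
H2bc13: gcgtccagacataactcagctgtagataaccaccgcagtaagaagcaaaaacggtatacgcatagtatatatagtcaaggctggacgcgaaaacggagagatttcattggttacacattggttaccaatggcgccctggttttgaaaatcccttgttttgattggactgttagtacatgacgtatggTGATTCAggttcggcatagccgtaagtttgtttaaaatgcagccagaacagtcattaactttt
H2bc12: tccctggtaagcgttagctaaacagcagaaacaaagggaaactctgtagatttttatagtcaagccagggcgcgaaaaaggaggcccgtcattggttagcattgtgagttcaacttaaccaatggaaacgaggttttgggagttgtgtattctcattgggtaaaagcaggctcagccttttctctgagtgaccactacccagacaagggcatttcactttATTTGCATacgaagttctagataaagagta

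A longer site, TGANTCAGC on either strand, was in 0 of 61 promoters (which allows a share of up to 4.92%) and in 1.19% of all promoters. The part of the site read by small Maf proteins, TGCTGA on either strand, stood in 10 of 61 (16.4%, 9.16 to 27.6), near the 19.5% of all promoters. Elements known from histone promoters gave larger shares. The octamer ATTTGCAT was in 14 of 61 (23.0%, 14.2 to 34.9), in 7 of 18 H2A and 7 of 16 H2B genes and in none of the H1, H3 and H4 genes, against 1.74% of all promoters. CCAAT was in 53 of 61 (86.9%, 76.2 to 93.2), among them every matched H1, H2A, H2B and H3 gene but only 3 of 11 H4 genes, against 37.4% of all. TATAAA was in 35 of 61 (57.4%, 44.9 to 69.0), against 13.6% of all. TGANTCAGC holds TGANTCA by construction, and neighbouring H2A and H2B genes can share promoter bases, so these counts are not independent. A match describes letters only, and letters missing from these windows say nothing of binding elsewhere in the clusters.

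Most of the member peaks lay in the Hist1 window. It held 50 Bach1, 54 Bach2 and 3 Mafk peaks over 2.3 Mb. Per Mb this is 21.7 Bach1, 23.5 Bach2 and 1.30 Mafk peaks, beside 1.30, 0.605 and 0.703 over the rest of chromosome 13. The window thus held 44.6% of the Bach2 peaks of chromosome 13, 25.4% of its Bach1 peaks and 3.66% of its Mafk peaks. The Hist2 window, 0.2 Mb long, held 9 Bach1, 8 Bach2 and 1 Mafk peak. In the Hist3 window no peak of any factor was listed. Since the lists hold only peaks past the threshold of the peak caller, this does not show an absence of binding there. Its nearest peaks were 3 with summits at 58604344 (Bach1, fold enrichment 15.0), 58604333 (Bach2, 3.79) and 58604369 (Mafk, 4.01), all of them 95.6 to 95.7 kb before the window.

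**Figure D1:**
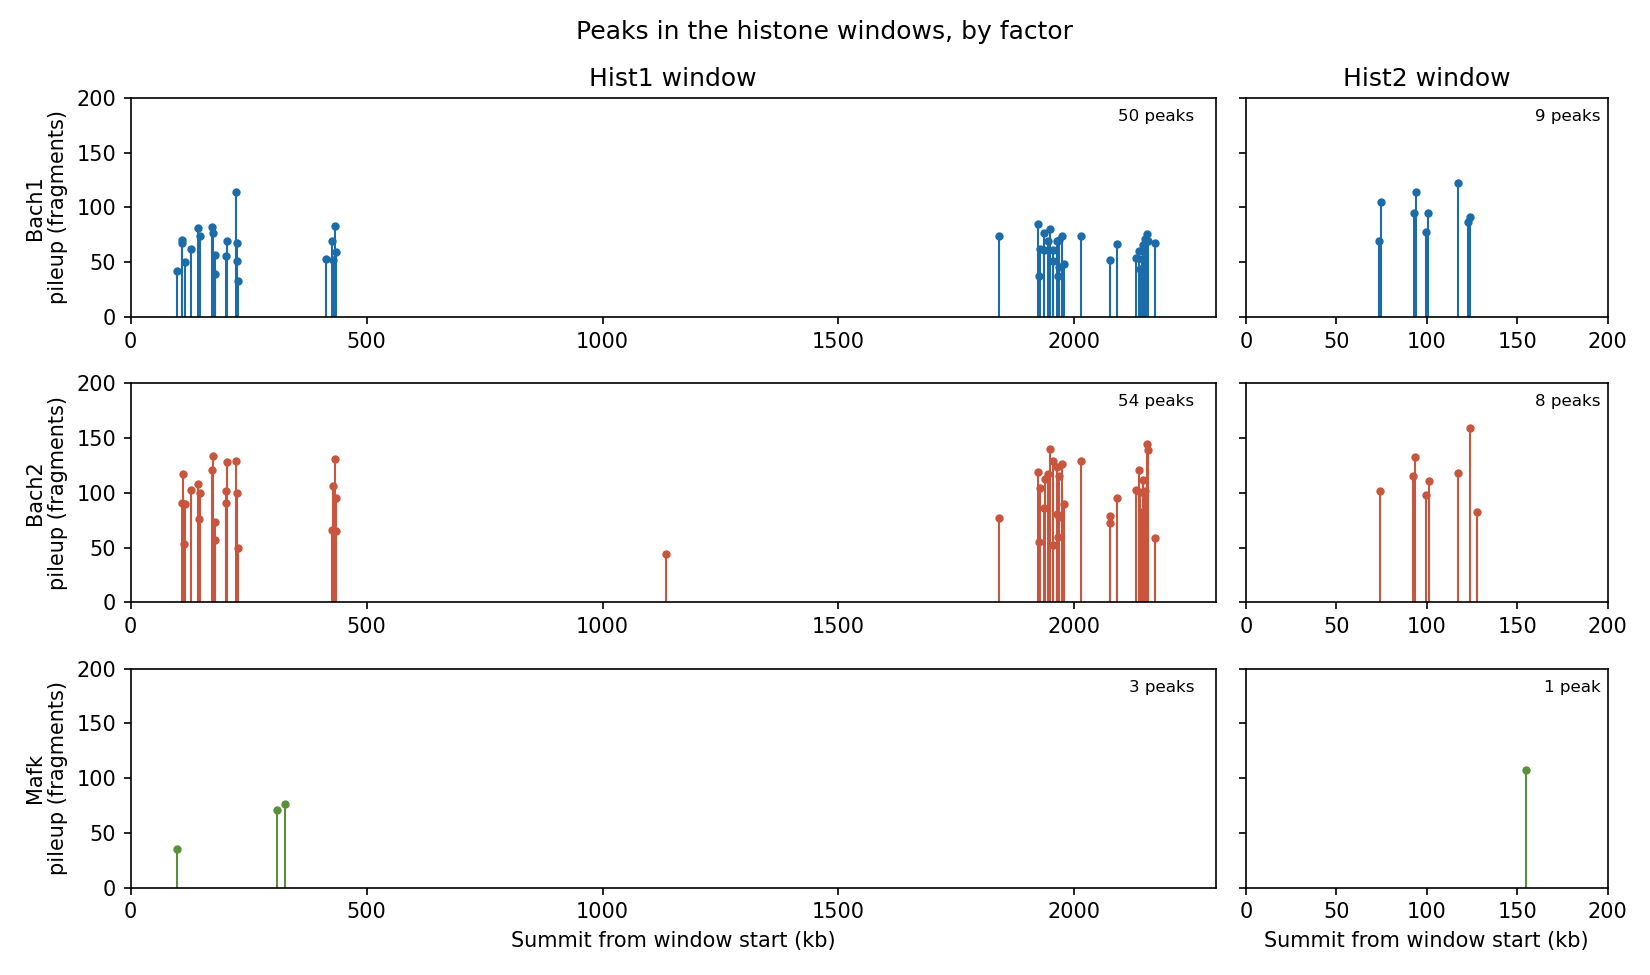
Pileup in fragments (vertical axis, from 0) of every peak in the Hist1 and Hist2 windows against the distance of its summit from the window start in kb (horizontal axis, scaled separately in each window), 1 row per factor and 1 library each; each line with a point is 1 peak. Bach1 (50 and 9 peaks) and Bach2 (54 and 8) stand in the same groups, and the 3 and 1 Mafk peaks lie apart from most of them.

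Within the Hist1 window the peaks fell into groups. Chains, meaning runs of summits of 1 factor at most 50 kb apart, of 5 or more peaks were 4 for Bach2, with 18, 5, 17 and 12 peaks in chromosome order. Bach1 had 4 as well, with 17, 5, 16 and 11. The Bach2 chains ran from 21807266 to 21927105, 22126659 to 22135941, 23622831 to 23714437 and 23775162 to 23870655. Those of Bach1 had ends nearby, and ran from 21798604 to 21927160, 22113480 to 22135511, 23622749 to 23714421 and 23775394 to 23870651. In the GRCm38.p6 table, the protein-coding histone genes of chromosome 13 stood in 5 runs with no other protein-coding gene inside, of 18, 5, 20, 9 and 2 genes. The first run goes from H2bc13 to H4bc24 (an H2B gene by its older name Hist1h2br), the second from H2ac12 to H2bc11, then one from H4c8 to H4c3, the fourth from H1f2 to H1f1 and the last from H2bc1 to H2ac1. The 2 series of numbers are set side by side only, because runs and chains come from different builds and count different things. A run counts genes and a chain counts peaks, and chain sizes depend on the spacing allowed. The largest Bach2 chain had 16 peaks with summits at most 20 kb apart, and 30 at 100 kb.

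Neighbouring summits in the Hist1 window were a median of 3.76 kb apart for Bach2 (quartiles 1.34 to 12.9) and 4.48 kb for Bach1 (1.69 to 13.8). Elsewhere in the lists these medians were 893 kb and 229 kb. In the Hist2 window they were 6.27 kb for Bach2 and 3.37 kb for Bach1, in 1 chain each, from 96023805 to 96077927 and from 96023793 to 96074124. Of 100-kb bins with 5 or more Bach2 peaks the genome held 7, and 6 of these lay in the windows, where the fullest had 16 peaks. The other such bin had 5 Bach2 peaks. For Bach1, 6 of 15 such bins lay in the windows, with up to 15 peaks.

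By 1 bp in common, nearly all Bach1 and Bach2 peaks of these windows overlapped. This rule does not require near summits. With summits within 100 bp, 27.4% of Bach2 members were matched by Bach1, against 78.6% of the whole Bach2 list. For Bach1 members this was 28.8%, against 28.1% of the whole Bach1 list. Of the 62 Bach2 peaks, 59 had at least 1 bp on a Bach1 peak (95.2%, Wilson 95% interval 86.7 to 98.3), against a background of 85.2% over the whole Bach2 list. Of the 59 Bach1 peaks, 57 lay on a Bach2 peak (96.6%, 88.5 to 99.1), against 30.3% over the whole Bach1 list and 29.2% (27.8 to 30.7) of the Bach1 peaks outside the windows. Among the 925 Bach1 peaks elsewhere whose control background lay between the quartiles of the members, 31.9% (29.0 to 35.0) did. Longer peaks meet the 1 bp rule more easily. The 925 were not matched in length, with a median of 355 bp against 635 bp at the Bach1 members. No file used here tests the in-house Bach antibodies for binding to each other's target. The control background is the local level of the control at the summit, computed from pileup and fold enrichment.

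The 5 exceptions among these Bach peaks were the following. Bach2 without Bach1 was listed at a summit at 21813506 (pileup 53, fold enrichment 3.32) and at 22834628 (44 and 4.79), far from the chains. Another lay in the Hist2 window at 96077649 (82 and 5.11), the highest fold enrichment of the 8 Bach2 peaks there. Bach1 without Bach2 was listed at 21798749 (pileup 42, fold enrichment 6.80) and 22113562 (53 and 4.25), each the first peak of a Bach1 chain.

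Mafk peaks were rare at these sites of its dimer partners. None of the 62 Bach2 peaks lay on a Mafk peak, which allows a share of up to 4.84% by counting error (Wilson 0 to 5.83), against 21.7% of the whole Bach2 list. Of the Bach2 peaks elsewhere with a control background between the members' quartiles, 58 of 262 lay on a Mafk peak (22.1%, 17.5 to 27.5). Of the 59 Bach1 peaks 1 did (1.69%, 0.30 to 9.0), against 10.8% of the whole Bach1 list. That site was the one at 21798749, where the Mafk summit stood at 21798768, 19 bp away by position, with a pileup of 35 and a fold enrichment of 4.64. Seen from Mafk, 1 of its 4 peaks lay on Bach1 (23.9% over the whole Mafk list) and 0 on Bach2 (17.2%). The other Mafk peaks stood alone: 22010635 (pileup 71, fold enrichment 4.40) and 22027635 (76 and 8.13) in the gap between the first pair of chains, and 96105134 in the Hist2 window (107 and 4.58). All 4 were of ordinary length, 376 to 401 bp. A Mafk peak not listed was below the threshold of that list, and the small Maf proteins other than Mafk were not measured.

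Merged by 1 bp in common, the member peaks formed 61 sites, of which 53 held Bach1 and Bach2 and no Mafk. In 9 sites at least 1 factor had more than 1 peak. Peaks outside the windows were not merged, so these counts have no share over the whole lists beside them. They describe the windows only.

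The peaks in the windows were long. The median length of Bach2 members was 935 bp (quartiles 798 to 1140, range 235 to 2211, n = 62), against 341 bp (279 to 418) in the rest of that list. That of Bach1 members was 635 bp (477.5 to 831, range 235 to 1619, n = 59), against 347 bp (273 to 449). Mafk members did not share this, with 381 bp against 332 bp. Of the 62 Bach2 members 28 reached 1000 bp, or 45.2%, against a background of 2.67% of the list, so that 75.7% of the 37 Bach2 peaks of this length lay in the windows. Among Bach1 members 10 of 59 did (16.9%, background 1.5%), and among the 4 Mafk members 0 (background 0.0569%, 1 peak). By summed length the windows held 10.8% of all Bach2 peak sequence with 4.48% of the Bach2 peaks, and 2.63% of that of Bach1 with 1.52% of its peaks.

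**Figure D2:**
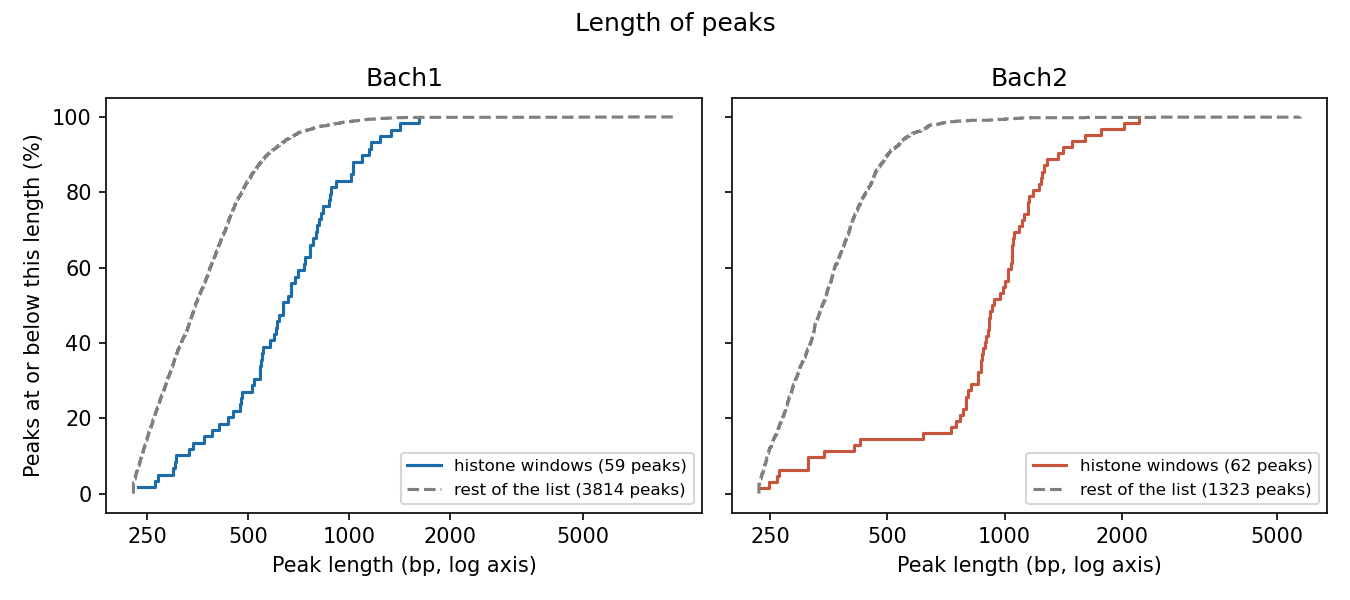
Share of peaks in percent (vertical axis) at or below each peak length in bp (horizontal log axis), for Bach1 and Bach2, in the histone windows (solid) and in the rest of the list (dashed). The members lie to the right, with medians of 635 against 347 bp for Bach1 and 935 against 341 bp for Bach2.

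The control level differed as well. The control background at members was higher than elsewhere, at 3.18 times the lowest of the list for Bach2 (2.43 elsewhere) and 3.63 times for Bach1 (2.47 elsewhere). Peaks elsewhere with a control background between the members' quartiles had a median length of 362.5 bp for Bach2 (n = 262) and 355 bp for Bach1 (n = 925). In the Hist2 window the control stood at 4.82 times the lowest for Bach2 and 5.61 times for Bach1. How reads that fit several near-identical histone genes were placed is not given in the sources used here, and its part in these values was not tested.

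In strength the members were moderate. Bach2 members had a median pileup of 102 fragments (79.5 to 118.75) against 64 elsewhere, and their fold enrichment, pileup over control, was 5.05 at the median (4.06 to 6.21) against 4.42. Bach1 members had a median pileup of 69 (53.5 to 77) against 52, but a median fold enrichment of 4.19 (3.55 to 4.94) against 4.69. For Bach1 the direction therefore depended on the measure, higher in pileup and lower in fold enrichment, and on the peaks compared. Against peaks elsewhere with a control background between the members' quartiles, fold enrichment was higher at the members of both lists, 4.19 against 3.69 for Bach1 (n = 925) and 5.05 against 3.85 for Bach2 (n = 262). Only 1 of 62 Bach2 members and 0 of 59 Bach1 members were in the top 10% of their list by fold enrichment. By length, 53 and 35 of them were.

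The 5 Bach2 peaks of the Hist1 window with the highest fold enrichment were spread over 3 chains. At 23836923 Bach2 had a pileup of 121 and a fold enrichment of 7.98, and Bach1 60 and 5.24. At 23647254 Bach2 had 140 and 7.81, and Bach1 80 and 6.04, with the summits 4 bp apart. Bach2 exceeded Bach1 at both sites on both measures. The sites were picked by their Bach2 fold enrichment, which favours this, and pileups were not scaled between libraries. At 21903921 the values were 128 and 7.42 for Bach2 and 69 and 5.0 for Bach1. At 23853802 they were 145 and 7.36 for Bach2, whose peak of 2211 bp was the longest member, and 76 and 5.46 for Bach1. At 21923858 they were 129 and 7.30 for Bach2 and 114 and 6.31 for Bach1, the highest Bach1 pileup of the window. The lowest Bach2 values were 2.57 at 21879576, 2.99 at 23541143 and 3.29 at 21845430.

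The strongest Bach1 peaks of this window were partly other sites. The highest fold enrichment, 7.44, was at 23870461 (pileup 68), where Bach2 had 4.74 (pileup 59). Next came 7.10 at 23623042 (pileup 85; Bach2 6.05, pileup 119) and 6.98 at 22133171 (pileup 83; Bach2 6.36, pileup 131). The fourth was the Mafk site at 21798749 and the fifth the summit at 21923944. At the first 3, fold enrichment was higher for Bach1, while pileup was higher for Bach2 at the latter pair. Picking these sites by Bach1 fold enrichment favours the former, and the pileups of the lists were not scaled to each other. The lowest Bach1 values were 2.19 at 23677633, 2.47 at 21879538 and 2.77 at 22135244.

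Hist2 peaks, named after their values were seen, had higher pileups on a higher control. Bach1 pileups ran from 69 to 122 with a fold enrichment of 2.86 to 4.90, and Bach2 pileups from 82 to 159 with 3.46 to 5.11. The highest Bach2 pileup of all members, 159 at 96073876, came with a fold enrichment of 4.68, and the nearest Bach1 summit, at 96073744, had 91 and 3.38. At 96067154 Bach1 had its highest member pileup, 122, with 4.90, and Bach2 had 118 and 4.13.

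At most of these shared sites Bach2 had the higher fold enrichment, and at most shared sites elsewhere Bach1 had. Each of the 59 Bach2 members on Bach1 was paired with the Bach1 peak of nearest summit, 54 different peaks in all. Bach2 fold enrichment was above that of Bach1 at 44 of the 59 (74.6%), against a background of 14.9% of all 1180 shared sites. It was so at 42 of 52 sites in Hist1 and 2 of 7 in Hist2. Pileup was higher for Bach2 at 55 of 59 (93.2%, background 34.3%). The Bach1 to Bach2 ratio of fold enrichment had a median of 0.806 (quartiles 0.722 to 1.00) in the windows and 1.64 (1.21 to 2.15) at the 1121 shared sites elsewhere. The ratio of pileups had 0.658 (0.574 to 0.765) and 1.26 (0.923 to 1.66). Median Bach1 fold enrichment was 4.16 at the shared sites of the windows and 7.66 at those elsewhere. For Bach2 the medians were 5.07 and 4.67, so inside and outside differed more for Bach1 than for Bach2. The libraries were not scaled to each other, so a single ratio of pileups has no reference point, and only the ratios inside and outside are set side by side. At the 205 shared sites elsewhere with a control background between the members' quartiles, the fold ratio was 1.49, and Bach2 was higher at 35. Median fold enrichment at these 205 sites was 6.22 for Bach1 and 4.10 for Bach2.

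**Figure D3:**
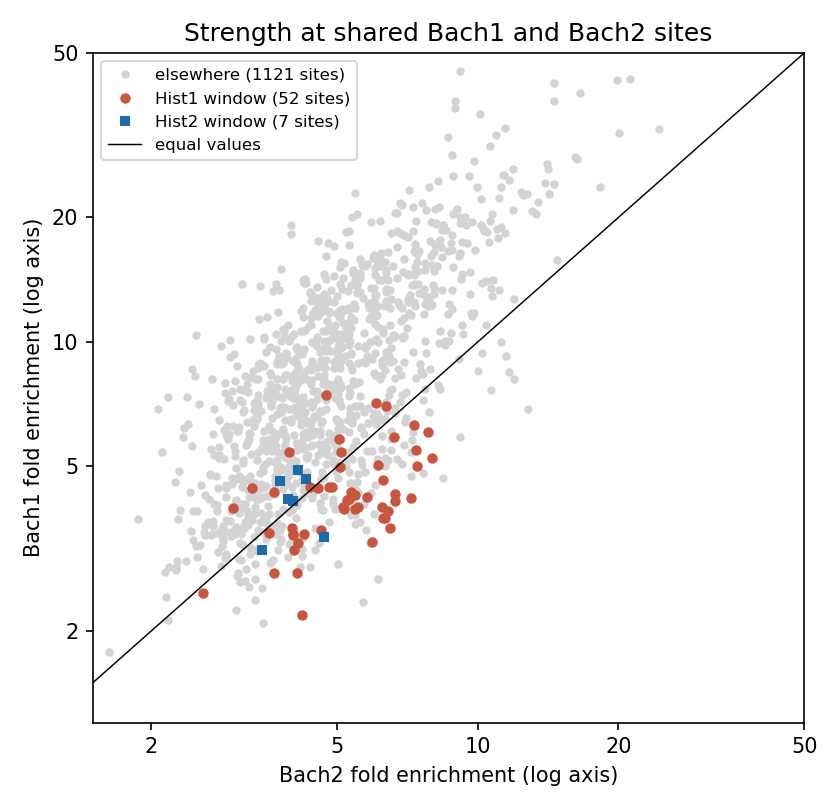
Bach1 fold enrichment (vertical log axis) against Bach2 fold enrichment (horizontal log axis) at each shared site, 1 library per factor; the line marks equal values. Sites of the Hist1 window lie mostly under the line (42 of 52), those of Hist2 near it (2 of 7 under it), and most of the 1121 sites elsewhere above it.

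The Bach2 peak was also the longer one at 44 of the 59 shared members (74.6%), against a background of 18.1%. Median lengths at these sites were 972 bp for Bach2 and 688 bp for Bach1, and at shared sites elsewhere 351 and 455 bp.

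Summits of the 2 factors did not stand together in the windows as they did elsewhere. The median distance between the nearest Bach1 and Bach2 summits was 189 bp (quartiles 85.5 to 318, n = 59) in the windows and 21 bp (9 to 40, n = 1121) at other shared sites. It was 175 bp in Hist1 and 271 bp in Hist2. Summits were over 100 bp apart at 42 of 59 sites (71.2%), against a background of 7.8%. Within 50 bp there were 11 of 59 (18.6%), and 82.4% of the sites elsewhere. Of the 62 Bach2 members, 17 had a Bach1 summit within 100 bp (27.4%, 17.9 to 39.6), against a background of 78.6% of the whole Bach2 list. A reciprocal overlap of 50% with a Bach1 peak was met by 40 of 62 (64.5%, 52.1 to 75.3), against 77.6%. For the 59 Bach1 members these counts were 17 and 40, or 28.8% and 67.8%, against 28.1% and 27.8% of the Bach1 list. The Bach1 summit lay at the higher coordinate in 26 sites and at the lower in 33, much as at all 1180 shared sites (578 and 596).

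**Figure D4:**
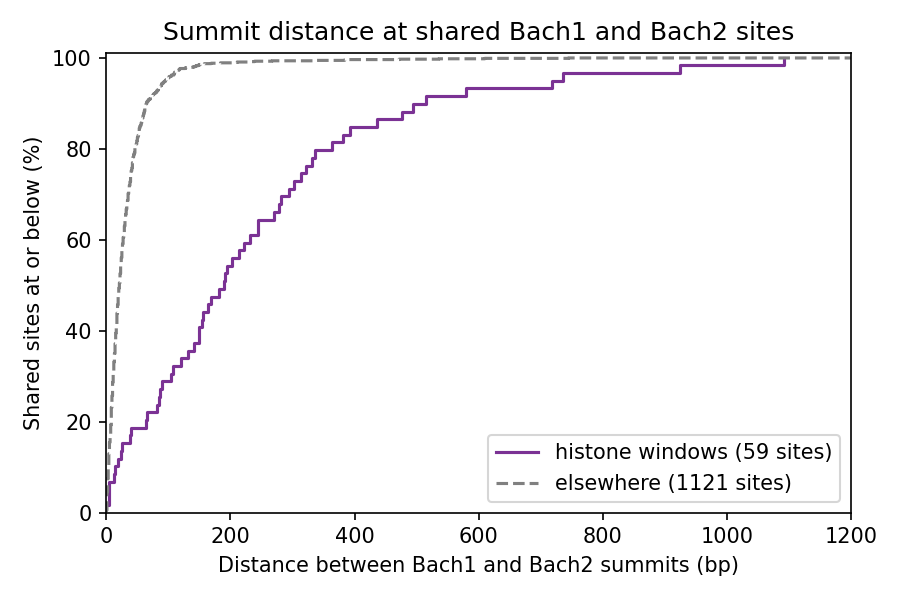
Share of shared sites in percent (vertical axis) whose nearest Bach1 and Bach2 summits lie at or below each distance in bp (horizontal axis), in the windows (solid, 59 sites) and elsewhere (dashed, 1121 sites). The median is 189 bp in the windows and 21 bp elsewhere.

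The same distances were taken at long peaks alone. Where both peaks were 500 bp or longer, the median was 208.5 bp at 46 member sites and 18 bp at 97 sites elsewhere. Divided by the length of the shorter peak, the distance had a median of 0.27 in the windows and 0.060 elsewhere. In these long pairs, Bach2 fold enrichment was higher at 36 of 46 sites in the windows and at 5 of 97 elsewhere. The 2 groups of long pairs were not matched in strength or in Bach2 length. Median fold enrichment was 4.20 for Bach1 and 5.27 for Bach2 in the windows, and 12.7 and 7.54 elsewhere. Bach2 peaks of these pairs had a median length of 1044 bp in the windows and 570 bp elsewhere, and Bach1 peaks 788 and 778 bp. The widest distance, 1093 bp, was between the Bach2 summit at 21902839 and the Bach1 summit at 21901746. There 1 Bach1 peak overlapped a pair of Bach2 peaks and was used for both. The other Bach2 summit, at 21901759, lay 13 bp from the same Bach1 summit.

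The windows also held 13 shared sites at which at least 1 of the peaks was under 500 bp, a group set apart after the values were seen. Their median summit distance was 38 bp (14 to 150), against 21 bp (9 to 40) at the 1024 such sites elsewhere. Divided by the length of the shorter peak it was 0.162 against 0.062. The Bach2 peaks of this group were still long, with a median of 616 bp against 340.5 bp elsewhere. The distance was over 100 bp at 5 of the 13 (38.5%), against 3.61% of such sites elsewhere. The widest were 364 bp at the Bach2 summit 23839024, 322 bp at 23849349 and 314 bp at 23843466. Those with near summits included 23870465 and 21926943, each with the Bach1 summit 4 bp away, 23625926 (14 bp), 23655120 (18 bp) and 23541143 (25 bp). Bach2 fold enrichment was higher at 8 of the 13 and at 127 of 1024 elsewhere.

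The peaks just outside the windows are given for the limits of the rule. Before Hist1 the last Bach1 summit was at 21454740 (length 321 bp, fold enrichment 3.17) and the last Bach2 summit at 21401893 (255 bp, 3.16). Inside, the first were at 21798749 and 21807772. After Hist1 came 24430145 for Bach1 (255 bp, 3.52) and 24505246 for Bach2 (324 bp, 3.33), following the last inside at 23870461 and 23870465. Around Hist2 the neighbours were 95908419 (Bach1, 320 bp, 2.52) and 96290222 (Bach1, 909 bp, 5.69), the latter longer than the median member, with a pileup of 142. For Bach2 they were 95097670 (461 bp, 5.54) and 97738885 (310 bp, 4.07). Mafk summits next to Hist1 were at 20648165 and 32365149.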

How the data were processed

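The data were 3 deposited peak lists of M1 cells, 1 library per factor, read from both ends at 51 bases according to the labels. MACS2 2.1.0, BWA 0.7.10, CASAVA 1.8 and the build mm9 are named, with no settings, in the submitters' processing notes. The peak names carry a q threshold of 0.01. Pileup is, per the file headers, a deposited signal that counts the fragments over the summit and was not scaled between libraries. Fold enrichment is the authors' ratio of this pileup to the local control.

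Members were taken by summit, with Python 3.11.15, pandas 2.3.3 and scipy 1.17.1. With 1 as the caller's pseudocount, control background was (pileup + 1) / fold enrichment - 1, and a Poisson p was taken from pileup and background. Peaks were shared with 1 bp in common. Shares have Wilson 95% intervals, which cover counting error only and treat neighbouring peaks as independent. Overlap, summit distance and chain functions were tested on simulated peaks. Chains of 5 or more peaks, peaks on no partner, Mafk members, edges, and the 5 highest and 3 lowest Bach peaks of Hist1 by fold enrichment were named by rule. The windows and lists were chosen with earlier results of these data known. Sequences of peaks were not used here, for want of mm9 sequence in the sources used here. Alternatives were other overlap rules, stricter lists, wider windows, other chain spacings and other comparison peaks.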

Additional observations from a re-analysis of the deposited data

How the results depend on the processing

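Of 79 alternative values for 21 results, 63 stayed near the main value: shares within its Wilson interval, and counts, distances and log2 differences within 1.5 times of it with the same sign. With the windows widened by 500 kb, Hist2 held 17 Bach1 and 2 Mafk peaks, and Hist3 held 2 Bach1, 1 Bach2 and 2 Mafk peaks. With a reciprocal overlap of 50%, 64.5% of Bach2 members lay on Bach1 and 67.8% of Bach1 members on Bach2, and with summits within 100 bp 27.4% and 28.8% did. Both rules need peaks of like length or nearby summits. Over the whole Bach2 list they gave 77.6% and 78.6%, and over the whole Bach1 list 27.8% and 28.1%. With a pileup of 50 or more, 85.2% of Bach2 members lay on Bach1, and 0 of 51 Bach1 members on Mafk. The log2 difference in median between Bach1 members and the rest was -0.16 in fold enrichment, reversed to 0.41 in pileup, and was -0.11 against the rest of the same 3 chromosomes. For Bach2 it was 0.20 in fold enrichment and 0.67 in pileup. Against peaks elsewhere of like control background it was 0.39 for Bach2 and reversed to 0.19 for Bach1. Measured from each Bach1 peak, the median summit distance was 181 bp in the windows and 21 bp elsewhere. Chains of 5 or more Bach2 peaks numbered 5 with summits at most 20 kb apart and 3 at 100 kb. The comparisons with peaks of like control background or of 500 bp or longer, of the Hist1 window alone and from each Bach1 peak were chosen after seeing the data. No paired analysis was possible because there is a single library of every factor, which also leaves no replicate to omit. Depth is unknown, so a site near the threshold in 1 list can be missed in another.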

Other observations

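Crowding of Bach1 peaks was not limited to the histone windows, where 6 of its 15 bins of 5 or more peaks lay. Of such Bach2 bins, 6 of 7 lay there. The fullest 100-kb bin of the Bach1 list lay on chromosome 9 between 3000115 and 3038220 (mm9), with 35 peaks of a median length of 387 bp. The control background there had a median of 57.2 times the lowest of the list, against 3.63 times at the Bach1 members of the histone windows. Outside the windows 20 chains of 5 or more Bach1 peaks and 2 of Bach2 peaks were found, both of the latter with 5 peaks.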
